A study of Mus musculus with 2 samples.

Results

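RANKL, osteoprotegerin and the osteoclast-lineage genes are described here as 10 genes measured in primary mouse chondrocytes, once before cyclic stretching and again 24 h later. The genes were chosen by name, as the ligands, receptors and decoy receptor of the RANKL and M-CSF pathways and as genes typical of osteoclasts and macrophages. A RefSeq transcript of 9 of the 10 genes was matched to a probe, out of 20660 genes with a matched probe on the arrays. Cd68 had no matched probe, and its expression was not analysed here. The cells were taken from C57BL/6J mice at an age of 6 days and grown on fibronectin in silicon chambers. Group 1 is RNA taken before loading, and group 2 is RNA taken 24 h after strain of 10% elongation at 0.5 Hz for 30 min. Each group is 1 array with 1 colour, and the arrays shared a slide. How many animals gave the cells, and whether they were pooled, is not given in the sources used here. Because each time point has 1 array, no difference has a replicate check, and no test or p-value is given. An unloaded culture of the same age as the loaded one was not analysed here, so the effects of strain and of a further day in culture cannot be told apart.

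As background, RANKL is the cytokine that drives osteoclast precursors to become bone-resorbing osteoclasts by binding the receptor RANK on their surface. Osteoprotegerin is a secreted decoy receptor that binds RANKL and keeps it from RANK, while M-CSF and IL-34 keep the precursors alive through their shared receptor CSF1R. Chondrocytes are known to make RANKL, osteoprotegerin and M-CSF, and osteoclast-like cells resorb calcified cartilage at the growth plate.

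Values below are the processed intensity of the scanner software, in arbitrary units, after background subtraction. Each array was scaled to its 75th percentile, 466.4 for the array before loading and 466.2 for that at 24 h, and a log2 ratio is the value at 24 h minus that before loading. The error given with a log2 ratio combines the software's error of the spots on both arrays and covers within-array error only. The brightest probe stands for its gene, which is called detected where that probe was well above background on both arrays. Spots were well above background down to 17.3 on the array before loading and down to 17.8 at 24 h.

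Of the 10 genes, 8 were detected, and 1 more, Tnfsf11, was well above background before loading only. At 24 h none of the 8 detected genes had passed 2-fold, with 0 higher and 0 lower. Of all 14231 detected genes, 0.668% (95 genes) had passed 2-fold upward and 1.83% (260 genes) downward, so that a count of 0 among 8 genes lies near the background. With arrays scaled to their medians, the share of higher genes among those past 2-fold was 38.8% (130 higher and 205 lower) in place of 26.8%, since that scaling raises the ratios by 0.10, and the count among the 8 genes was again 0. The log2 ratios of the 8 genes lay between -0.15 and 0.28, with 5 above 0 and 3 below, while 47.6% of all detected genes were above 0. Their median was 0.08, beside -0.01 over all detected genes. In size, without regard to direction, the median was 0.15, beside 0.18 over all detected genes. The ratio of 2 of the 8 genes, Acp5 and Tyrobp, was larger than 1 within-array error, as it was in 42.8% of all detected genes.

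**Figure D1:**
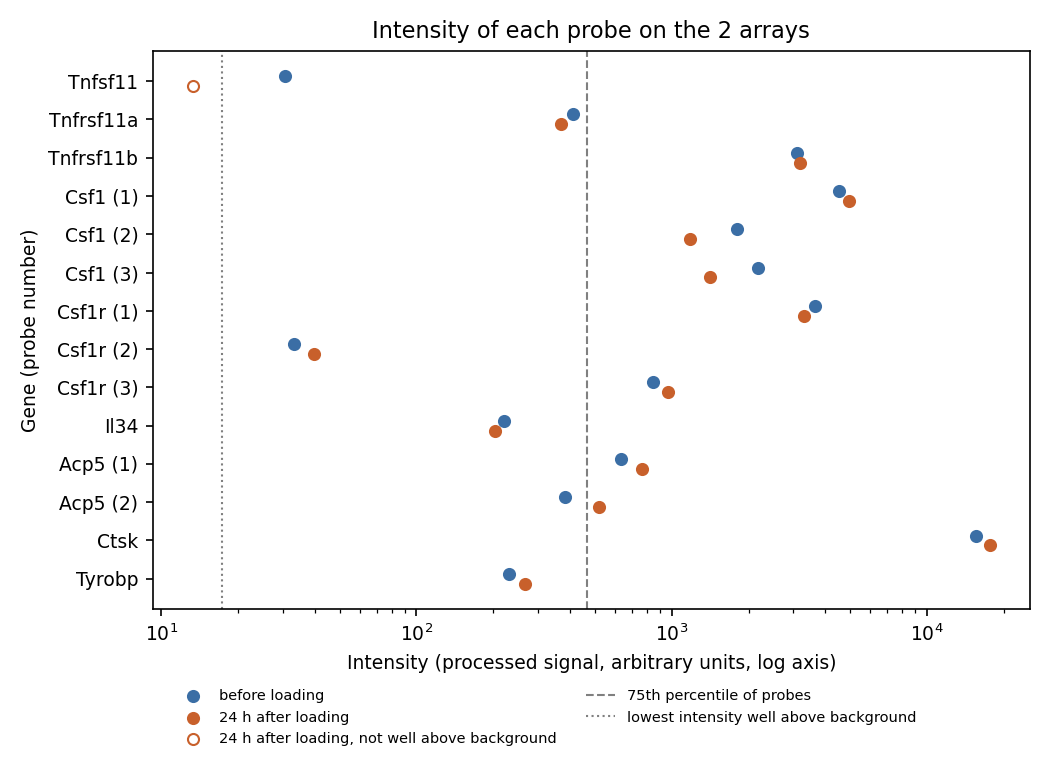
Intensity of each matched probe on a log axis, before loading (blue) and 24 h after loading (orange), with 1 array per time point. Probes of 1 gene are numbered, with 1 the representing probe, the open circle is a spot not well above background, and the lines mark the 75th percentile (466.4) and the lowest intensity well above background (17.3) before loading. The Tnfsf11 probe lies at 30.6 and 13.3, on either side of the lowest intensity well above background.

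Tnfsf11, the gene for RANKL, was measured by 1 probe, listed by the transcript accession NM_011613. Its intensity was 30.6 before loading, with an error of 4.86. At 24 h it was 13.3, with an error of 4.05, and was not well above background. With the lowest intensity well above background on that array (17.8) in place of the spot's own, Tnfsf11 was 1.72-fold lower at 24 h. This is not a strict bound, since some spots above that intensity also miss the flag. The log2 ratio of the measured intensities, with the spot at 24 h near background, was -1.20 with an error of 0.50. With normexp correction, which started from the median spot signals and added an offset of 50, it was -0.17. That offset exceeds both intensities and draws the ratio toward 0, so -0.17 is no independent check of the change. Within 100 µm of the Tnfsf11 spot lay 28 other spots, of which 1 was more than 2-fold lower and 0 were more than 2-fold higher. Neighbours were counted whether or not they were well above background, and no share over all spots was taken. The Tnfsf11 values are of bulk RNA, in which fewer cells that express a gene and less RNA per cell cannot be told apart.

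Tnfrsf11b, the gene for osteoprotegerin, was measured by 1 probe for NM_008764. The intensity was 3107 before loading and 3168 at 24 h, with errors of 311 and 317. The log2 ratio of 0.03 was smaller than its error of 0.20, and 90.8% of all detected genes had a ratio at least as large in size. Set against each other as changes, with Tnfsf11 at 24 h set to that lowest intensity, the ligand was lower relative to its decoy receptor by 1.75-fold, again not a strict bound. With normexp correction the log2 ratio of Tnfsf11 minus that of Tnfrsf11b was -0.24, with the same limit from the offset.

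Tnfrsf11a encodes RANK, the signalling receptor for RANKL. The intensity of its probe for NM_009399 was 409 before loading and 369 at 24 h, below the 75th percentile on both arrays. Its log2 ratio of -0.15 was within the error of 0.20.

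Csf1 encodes M-CSF, a ligand of CSF1R that precursors of osteoclasts and macrophages need for survival. Its representing probe, for NM_007778, was printed as 10 spots. Over these spots the intensity lay between 4310 and 4734 before loading and between 4741 and 5131 at 24 h. The log2 ratio lay between 0.07 and 0.18 at the single spots, with an SD of 0.04 over the 10 spots. The spots share the RNA of 1 sample per array and are not replicates of a condition. Their mean log2 ratio was 0.13, within the error of 0.20 that the software gives. Of all detected genes, 62.2% had a ratio at least as large in size.

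The other probes of Csf1 are listed for another transcript, NM_001113530, and both were lower at 24 h. The intensity of 1 of them was 2171 before loading and 1415 at 24 h, a log2 ratio of -0.62 with an error of 0.20. The other had intensities of 1798 before loading and 1180 at 24 h, a log2 ratio of -0.61 with an error of 0.20. Both ratios were thus further from 0 than their errors while that of the probe for NM_007778 was not, and all 3 probes stayed within 2-fold. The log2 ratios of the 3 probes spanned 0.75. Of 3635 genes with more than 1 detected probe, 5.89% had a span at least as large, and the median span was 0.19. The log2 ratio of Csf1 was -0.37 when it was averaged over the probes, so that its sign depends on which probe stands for the gene. Probe sequences were not used here, and what each probe detects beyond its listed transcript was not tested.

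Il34 encodes the other ligand of CSF1R. The intensity of its probe for NM_029646 was 220.1 before loading and 203 at 24 h, a log2 ratio of -0.12 with an error of 0.21. It was lower under each scaling run, and nearest to 0 with median scaling, at -0.02. Of 29 spots within 100 µm of it, again counted with dim ones, 5 were higher and 3 lower by more than 2-fold.

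Csf1r, the receptor for M-CSF and IL-34 and a marker of the monocyte and macrophage lineage, had 3 probes, all listed for NM_001037859. The representing probe had intensities of 3646 before loading and 3288 at 24 h, a log2 ratio of -0.15. A further probe had 845 before loading and 967 at 24 h, a log2 ratio of 0.20. The dimmest probe had 33.0 before loading and 39.9 at 24 h, a log2 ratio of 0.27. Each of these ratios was within its own error, which was 0.20 for the first and the second probe and 0.32 for the dimmest. Their signs differed, and the mean over the probes was 0.11.

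Acp5 encodes tartrate-resistant acid phosphatase, the enzyme by which osteoclasts are commonly stained. Both of its probes are listed for NM_001102405 and both were higher at 24 h. The representing probe had intensities of 631 before loading and 763 at 24 h, a log2 ratio of 0.28 with an error of 0.20, or 1.21-fold. The other probe had 382 before loading and 521 at 24 h, a log2 ratio of 0.45 with an error of 0.20, or 1.37-fold. Acp5 had the highest log2 ratio of the 8 detected genes, and 32.7% of all detected genes had a ratio at least as large in size.

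Ctsk encodes cathepsin K, the collagen-degrading protease of osteoclasts, which chondrocytes and fibroblasts can also express. The intensity of its probe for NM_007802 was 15505 before loading and 17637 at 24 h. The log2 ratio was 0.19, within the error of 0.20.

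Tyrobp encodes DAP12, an adaptor that relays signals of immunoreceptors in myeloid cells and takes part in osteoclast formation. Its probe for NM_011662 had intensities of 231 before loading and 267 at 24 h, below the 75th percentile on both arrays. The log2 ratio of 0.21 was barely larger than the error of 0.21, and 43.9% of all detected genes had a ratio at least as large in size.

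**Figure D2:**
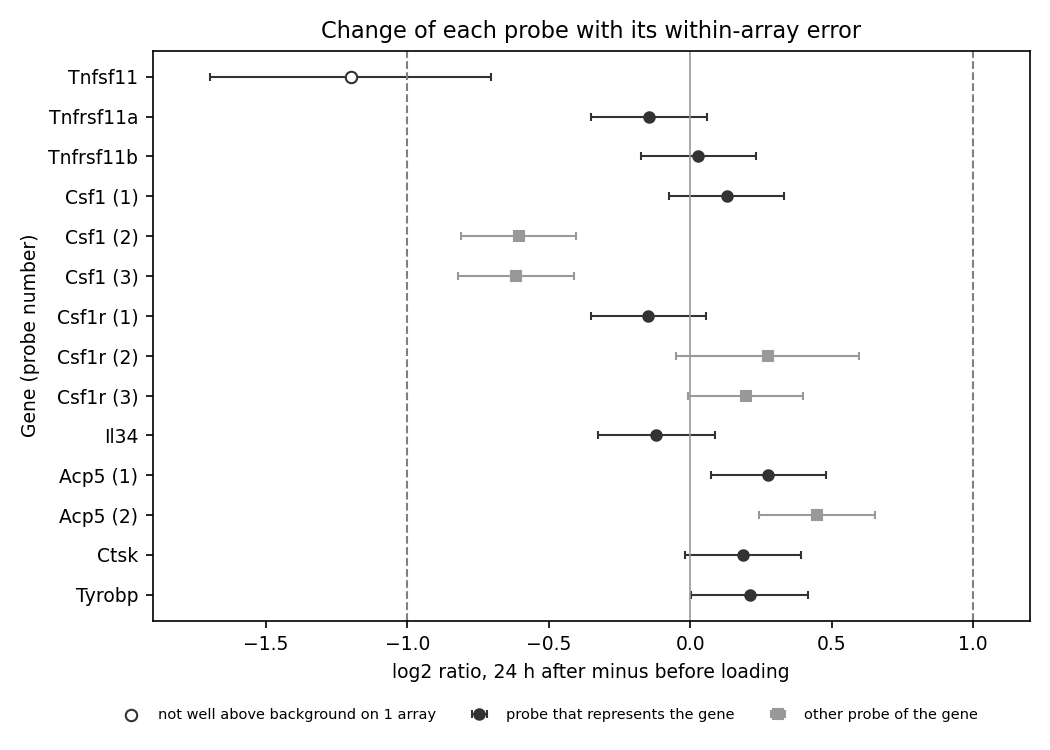
The log2 ratio of each matched probe, 24 h after minus before loading, with bars of 1 within-array error and dashed lines at 2-fold. Black circles are the probes that represent a gene, grey squares are other probes, and the open circle is Tnfsf11, which was not well above background at 24 h. The 13 probes well above background on both arrays lie within 2-fold, and the Csf1 probes lie at 0.13, -0.61 and -0.62.

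The genes around these 10 were read from lists written by hand, given as counts and medians, beside a median of -0.01 and a share above 0 of 47.6% over all detected genes. A list of RANKL receptor signalling held 28 genes, mostly co-receptors of RANK and proteins that act downstream, with Lgr4, another receptor for RANKL, and Tnfsf10 and Tnfrsf10b, the genes for TRAIL, which osteoprotegerin also binds, and its receptor. Of the 28 genes 24 were detected, 12 with a log2 ratio above 0 and 12 below, with a median of -0.01. Only Fosl1 passed 2-fold on its representing probe. This Fos-family transcription factor had intensities of 98.7 before loading and 45.0 at 24 h, a log2 ratio of -1.13 with an error of 0.26. It was inside 2-fold with normexp correction. The highest ratio was that of Trem2, a receptor that pairs with the adaptor encoded by Tyrobp, at 0.31 with an error of 0.21. Nfatc1, the transcription factor that RANKL induces in osteoclast precursors, was chosen after its values were seen. Its probe for NM_198429 had a log2 ratio of 0.11 and its probe for NM_016791 one of -0.58, a span reached by 7.18% of genes with several detected probes. Probes of Map3k14, a kinase of the noncanonical NF-κB pathway also chosen after its values were seen, differed too. Its representing probe had a log2 ratio of 0.05, while the dimmer one, at 72.7 before loading and 179 at 24 h, had 1.30 with an error of 0.22.

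Of 22 genes of osteoclast fusion and resorption and of their transcriptional control, 21 had a matched probe and 15 were detected. The unmatched entry, Nhedc2, is an older name of Slc9b2, which is also listed. Above 0 were 11 of the 15, with a median of 0.16, and 0 passed 2-fold. The highest ratio, 0.81 with an error of 0.37, was that of Irf8, a transcription factor of myeloid cells that restrains osteoclast formation, at intensities of 19.2 and 33.8. The lowest was that of Slc9b2, at -0.35 with an error of 0.27. On neither array were the representing probes of Dcstamp, Car2, Mmp9, Calcr and Siglec15 well above background. Atp6v0d2, a subunit of the proton pump, was well above background at 24 h only, at 33.5 against 16.8 before loading.

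Among 29 genes that induce or regulate RANKL and osteoprotegerin, 21 were detected, with a median of 0.01 and 0 past 2-fold. The lowest was Vdr, the vitamin D receptor, at 511 before loading and 266 at 24 h, a log2 ratio of -0.94 with an error of 0.21. The highest was Tgfb1, at 0.44 with an error of 0.21. Osm, the gene for oncostatin M, was well above background before loading only, at 33.8 against 21.9 at 24 h. The inflammatory inducers Il6, Tnf and Il1b, and also Lif, Ptger2, Ptger4 and Sost, were well above background on neither array.

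All 14 genes of lysosomal cathepsins and their partners, relatives of Ctsk in the lysosome, were detected. Above 0 were 13 of the 14, with a median of 0.23 and 0 past 2-fold. The highest was Ctsf, with intensities of 624 before loading and 1085 at 24 h, a log2 ratio of 0.80 with an error of 0.20. The lowest was Ctsw, a protease of cytotoxic lymphocytes, at -0.62 with an error of 0.24. The summed intensity of the list was 292951 before loading and 351253 at 24 h.

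The labelled cell type and other cell types were checked by their markers. All 15 chondrocyte markers were detected, with a median log2 ratio of 0.06 and 0 past 2-fold. The highest ratio was that of Matn1 (0.56) and the lowest that of Col11a1 (-0.82). The type II collagen gene Col2a1, the brightest of the list, had intensities of 499543 before loading and 474876 at 24 h.

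Macrophage markers bear on Csf1r, Acp5 and Tyrobp, which macrophages also express. Of 20 macrophage markers 15 were detected, with a median of -0.02, 7 above 0 and 8 below. Among the 15 were Lyz2, at 367 before loading and 506 at 24 h, C1qb, at 140 and 131, and Adgre1, at 55.6 and 59.0. Spi1, the gene for PU.1, was well above background on neither array, nor were Cd53, Aif1 and Cx3cr1. Ptprc, which encodes the leukocyte antigen CD45, was the only one past 2-fold. Its intensity was 20.9 before loading and 46.1 at 24 h, a log2 ratio of 1.14 with an error of 0.35, and it was inside 2-fold with normexp correction. The lowest was C1qa, at -0.42 with an error of 0.28. The summed intensity of the list was 44297 before loading and 44127 at 24 h, most of it from the brightest probe of Itgam, with 25496 and 24759. The other Itgam probes had 70.4 and 49.0 before loading and 54.9 and 44.2 at 24 h. With the dimmest probe of each gene, an alternative chosen after seeing the data, the sums were 5968 and 7679, of which Csf2ra alone gave 4620 and 6246. The part of macrophage RNA in the values of Csf1r, Acp5 and Tyrobp was not tested.

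T and B lymphocytes, osteoblasts, synovial and tendon fibroblasts and endothelial cells are other candidates that such a culture could hold. Of 10 lymphocyte markers 3 were detected, with ratios from -0.06 (Cd4) to 0.26 (Lck). The brightest Cd4 probe had 5509 before loading and 5288 at 24 h, and the other Cd4 probe 30.9 and 33.8. On neither array were Cd3d, Cd2 and Ms4a1 well above background. Osteoblast markers had 8 of 12 genes detected, of which 7 were below 0, with a median of -0.41. Ibsp, the gene for bone sialoprotein, had intensities of 259 before loading and 61.9 at 24 h, a log2 ratio of -2.06 with an error of 0.23, and its other probe was well above background before loading only. Bglap2 was the highest of the osteoblast markers, at 0.44, while Dmp1 and Ifitm5 were well above background on neither array. The summed intensity of the osteoblast list, mostly that of Col1a1, was 39995 before loading and 37781 at 24 h. Whether the RNA of the osteoblast markers came from osteoblasts or from the chondrocytes was not tested. Osteoblasts are another source of RANKL, and the part of osteoblast RNA in the Tnfsf11 value was not tested. All 9 fibroblast and tenocyte markers were detected, with a median of 0.21. Dpt, a matrix protein gene, was at 59.2 before loading and 253 at 24 h, a log2 ratio of 2.10 with an error of 0.23. The lowest of that list was Prg4, at -0.47, and its summed intensity was 8552 before loading and 9209 at 24 h. Of 7 endothelial markers 3 were detected, with ratios from -0.48 (Vwf) to 0.23 (Pecam1). Cdh5, Tek, Emcn and Tie1 were well above background on neither array. Kdr was detected by its brightest probe, at 12774 before loading and 12375 at 24 h. The other Kdr probe, at 5.05 and 5.63, was well above background on neither array.

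**Figure D3:**
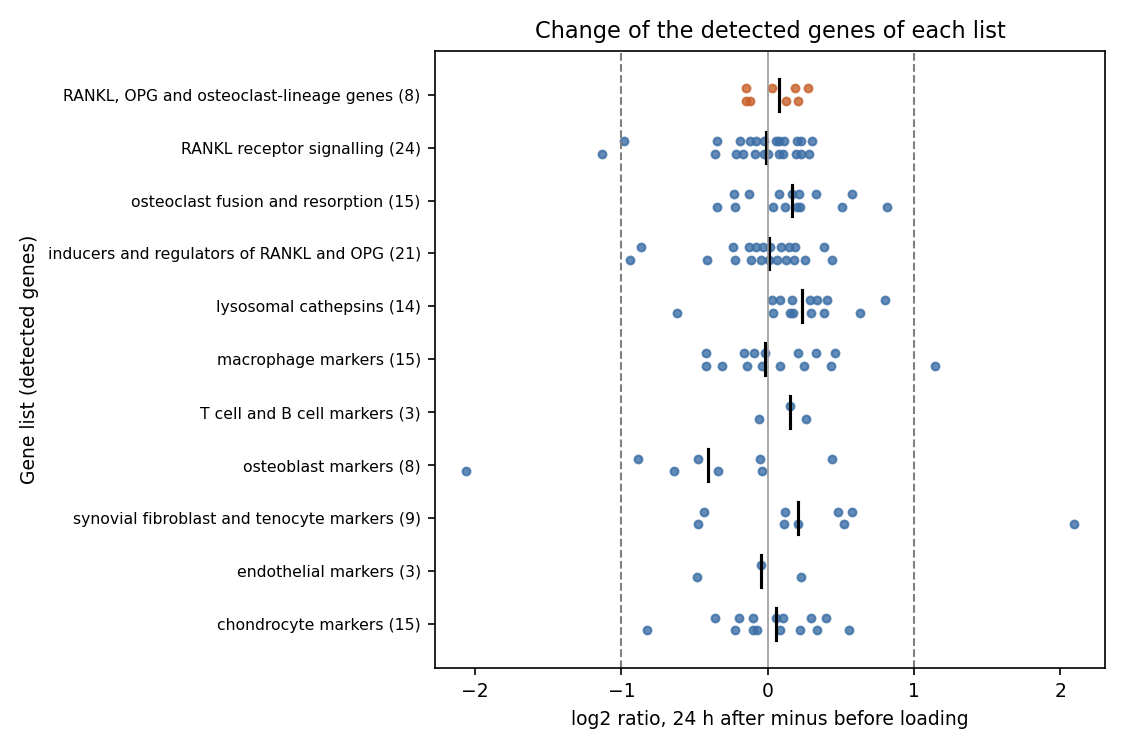
The log2 ratio of each detected gene, 24 h after minus before loading, by list, with the number of detected genes in brackets, a black bar at the median and dashed lines at 2-fold. The 8 detected genes of the RANKL, osteoprotegerin and osteoclast-lineage group (orange) lie between -0.15 and 0.28, and the points past 2-fold are Fosl1, Ptprc, Ibsp and Dpt.

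RefSeq promoters of assembly GRCm38.p6, from 250 bases before to 50 bases after a gene's start, were listed for 6 of the 10 genes (8 promoters, 3 of them of Acp5). None was listed for Tnfrsf11b, Csf1r, Il34 and Tyrobp. Motifs of factors that act in the osteoclast lineage were searched on both strands: the NF-κB consensus, TGANTCA for AP-1 and GAGGAA for PU.1. The broader E-box pattern CANGTG was searched in the same way, and its matches are not assigned to a given factor. Over all 32851 promoters of the table, 8.46% held the NF-κB consensus, 7.81% TGANTCA, 28.3% GAGGAA and 44.9% CANGTG. Of the 8 promoters, 1 held the NF-κB consensus (Csf1), 1 TGANTCA (Cd68), 2 GAGGAA (Ctsk and Cd68) and 4 CANGTG (Tnfrsf11a and the 3 of Acp5). Of the 10 genes, Tnfsf11 was well above background before loading only, and the Csf1 probes differed in sign by listed transcript. For this reason the promoters of Tnfsf11 and Csf1 are shown. The first lies on the reverse strand at chr14:78307994-78308293 and holds no match, and the other on the reverse strand at chr3:107760420-107760719, with its match in capitals, 154 bases before the gene's start. Matching letters are a description and not a binding site.
Tnfsf11: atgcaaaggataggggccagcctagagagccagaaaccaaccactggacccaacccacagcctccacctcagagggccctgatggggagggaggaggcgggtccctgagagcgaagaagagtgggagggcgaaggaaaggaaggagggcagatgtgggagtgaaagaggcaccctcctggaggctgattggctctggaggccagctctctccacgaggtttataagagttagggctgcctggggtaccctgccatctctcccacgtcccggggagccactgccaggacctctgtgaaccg
Csf1: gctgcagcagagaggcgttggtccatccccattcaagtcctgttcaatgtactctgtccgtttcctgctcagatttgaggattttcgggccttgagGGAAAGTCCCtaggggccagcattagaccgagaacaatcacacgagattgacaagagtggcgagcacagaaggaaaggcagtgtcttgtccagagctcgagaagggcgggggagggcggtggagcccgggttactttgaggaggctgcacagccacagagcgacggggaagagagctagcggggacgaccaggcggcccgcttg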

How the data were processed

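RNA of mouse primary chondrocytes was hybridised to 2 one-colour SurePrint G3 Mouse Gene Expression arrays, 1 per time point. The spot intensity that the authors deposited is the processed signal of Agilent Feature Extraction 10.10.1.1 (version from the submitters' processing notes), which is background-subtracted but not normalized across arrays, with its error and flags. A deposited value table holds the same intensities, within 0.497% over 59305 spots, with medians of 35.4 and 32.9. Control spots and outlier spots (141 before loading, 138 at 24 h) were left out, spots of a probe were averaged as log2 intensity, and the 75th percentile of each array was subtracted. Accessions without versions were named through a RefSeq table of assembly GRCm38.p6, and 27235 of 55678 probes matched 1 gene. A probe is detected where most of its spots are well above background.

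The members and lists were chosen with earlier results of these data known. Besides the members with every probe, the genes named are those of each list past 2-fold and its highest and lowest ratio, and any other gene named was chosen after its values were seen. Precision is limited by the number of arrays. The calls were tested on simulated data. There the detection flags were copied between arrays, so a flag lost near background, as for Tnfsf11, was not covered. A total of 10 alternatives and 1 added later were run, among them normexp (offset 50) on the median spot and background signals. R 4.3.3 with limma 3.58.1, and Python 3.11.15 with numpy 2.4.6, pandas 2.3.3, scipy 1.17.1 and matplotlib 3.10.9 were used.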

Additional observations from a re-analysis of the deposited data

How the results depend on the processing

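No paired analysis was possible because each time point has 1 array. The log2 ratios of Tnfrsf11a (-0.15 to -0.05), Tnfrsf11b (0.03 to 0.13), Il34 (-0.12 to -0.02), Acp5 (0.27 to 0.45), Ctsk (0.18 to 0.28) and Tyrobp (0.19 to 0.31) kept their sign and stayed within 1 error of the main value under the 10 alternatives run for them. With normexp correction Tnfsf11 came to -0.17 and its change minus that of Tnfrsf11b to -0.24, beside -1.20 and -1.23 from the measured intensities. That correction changes the input signal and adds an offset, and the cause was not tested. Averaging over probes gave -0.37 for Csf1 and 0.11 for Csf1r, and the dimmest probe, an alternative chosen after seeing the data, gave -0.61 and 0.27, because their probes differ. With detection on at least 1 array or with no filter on dim probes, 1 member, Tnfsf11, was past 2-fold lower. That count uses its measured intensity at 24 h (13.3), which was not well above background. With 17.8 in its place Tnfsf11 was 1.72-fold lower.

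Over all genes, normexp correction gave 38 higher and 117 lower, of which the cause was not tested, detection on at least 1 array 192 and 507, no filter 492 and 983, both of which add dim probes, and passing 2-fold by more than 2 errors 23 and 95. The main list counts were all 0 or 1, and of 110 list counts under an alternative, 98 were the same as the main count. Counts this small have little room to move. With normexp correction and with the error allowance, 0 RANKL receptor signalling genes and 0 macrophage markers were past 2-fold. With detection on at least 1 array 1 lymphocyte marker was, and with no filter 1 lymphocyte marker, 1 endothelial marker, 1 inducer of RANKL and 1 fusion and resorption gene. With the dimmest probe 2 signalling genes (Fosl1 and Map3k14), 0 osteoblast markers and 2 fibroblast and tenocyte markers were. The dimmest Ibsp probe, at 76.2 before loading and 14.7 at 24 h with a log2 ratio of -2.37, was left out because it was not well above background at 24 h. Signal over background limits the dim genes, Tnfsf11 first.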
